A study of Drosophila erecta with 23 samples.

Results

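The genes described here encode proteins of the cytoplasmic ribosome. They were taken from a fixed list of 46 *Drosophila melanogaster* gene identifiers, which the deposited gene table uses to name *Drosophila erecta* genes, and 42 of the 46 were among the 8948 genes of that table. The other 4 identifiers, FBgn0004403, FBgn0004404, FBgn0026372 and FBgn0010198, were not analysed here. Membership rested on the list alone and used no measured value. The list is partial, and other genes of cytoplasmic ribosomal proteins were not analysed here. Each sum and count below therefore covers these 42 genes only. No source used here pairs these identifiers with protein names, so each gene is given by its identifier, and the genes are not divided into those of the large and of the small ribosomal subunit.

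Cytoplasmic ribosomes are built from ribosomal RNA and a large set of ribosomal proteins, nearly all of them present as a single copy per ribosome. Because the proteins are needed in matched amounts, their genes are usually transcribed strongly and together in growing cells, and in flies many of them start within a pyrimidine-rich initiator sequence. A *Drosophila* egg receives a large store of maternal ribosomes and of ribosomal protein mRNA, to which the embryo later adds its own transcripts.

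Promoter activity was measured by RAMPAGE, which sequences 5'-complete cDNAs from capped RNA, in wild-type *D. erecta*, with whole embryos of the strain that the reference genome comes from. Eggs were laid in population cages and aged so that consecutive samples covered 1 h of embryogenesis each, the first being 0-1 h and the last 22-23 h, and each of the 23 windows had 1 sample. No agent was applied and no time point had a replicate. The error used below is therefore the counting error of a sample or the scatter of the samples around a smooth curve over time. A whole-embryo value mixes all cells, maternal RNA and new RNA, so that fewer cells of a type and less RNA per cell cannot be told apart.

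The level of a gene is given in RPM, its reads scaled to the total that the gene table implies for the sample. Levels of clusters of transcription start sites (TSCs) are scaled to the total of the TSC table, which is slightly smaller, so that the TSCs of a gene sum to slightly more RPM than the gene. The depth ranged from 142925 reads at 7-8 h to 13984136 reads at 0-1 h, with a median of 3427860, and 1 read at 7-8 h was worth 7.00 RPM. The part of these reads that belonged to listed genes was 88.2% at 0-1 h and 60.3% at 22-23 h. A trimmed-mean (TMM) scaling, which sets the bulk of genes equal between samples, moved log2 levels by between -0.58 at 7-8 h and 0.85 at 21-22 h. The direction of the main changes between early and late hours is therefore given under both scalings.

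The 42 ribosomal protein genes together held between 2.83% and 6.69% of all reads, a range of 2.37-fold over 23 h. The sum was 4.31% at 0-1 h, 4.15% at 1-2 h and 4.78% at 2-3 h. It stood higher, at 5.01% to 6.28%, in the 5 hours from 3 to 8 h. The 9 hours from 8 to 17 h ran from 4.16% to 6.69% with a median of 5.64%, and the last 6 hours from 2.83% to 4.39% with a median of 3.51%. Apart from 18-19 h, every hour from 17 h on was below every hour before it. At 18-19 h the sum was 4.39%, which exceeded the 3 hours 0-1 h, 1-2 h and 13-14 h.

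Counting error was small against these differences. The 95% Wilson interval was 6.64% to 6.74% in the highest hour, 12-13 h, and 2.80% to 2.85% in the lowest, 19-20 h, while it was widest, at 4.89% to 5.12%, in the shallow 7-8 h sample. These intervals cover counting error only and do not include the difference that a second sample of the same hour would show. Some neighbouring hours differed by far more than the intervals, such as 4.49% at 10-11 h and 6.21% at 11-12 h, while others, such as 20-21 h and 21-22 h, had intervals that overlapped.

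Whether the sum was lower at the end than at the start depended on the scaling. The last hour differed from the first by -0.34 on the log2 scale. As a share of the reads in listed genes the sum was instead 0.21 higher on the log2 scale, at 4.88% in the first hour and 5.63% in the last. Under TMM scaling it was 0.61 higher, and the hours from 17 to 23 h held 4.64% to 6.38% against 3.32% to 4.23% in the first 3 hours. The higher share at 12-13 h than at 0-1 h, 0.64 on the log2 scale, kept its direction under all the alternatives run.

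**Figure D1:**
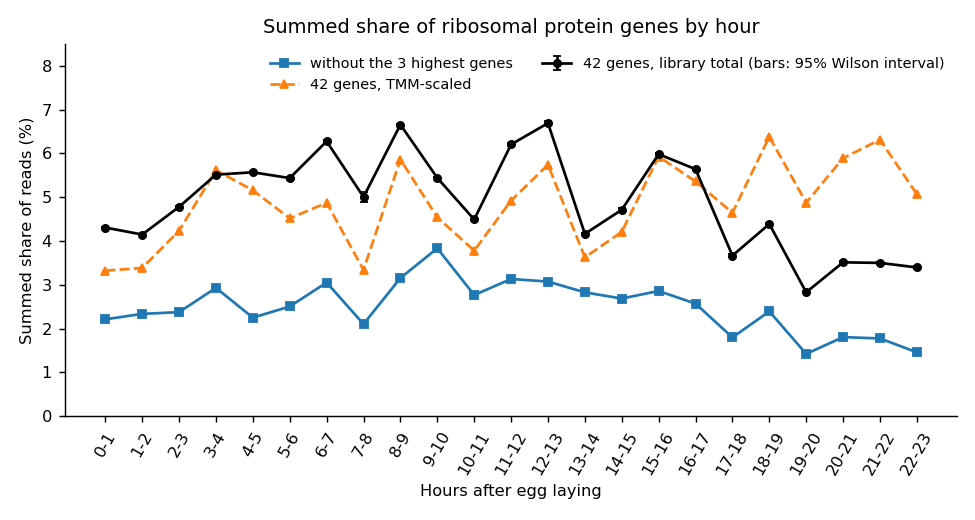
Summed share of reads (%, y axis) of the 42 ribosomal protein genes in each 1 h window after egg laying (x axis), as deposited with 95% Wilson intervals (black), without the 3 highest genes (blue) and after TMM scaling (orange). The black line peaks at 6.69% at 12-13 h and is lowest at 2.83% at 19-20 h, whereas the orange line is highest, at 6.38%, at 18-19 h.

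The total was dominated by 3 genes. FBgn0003941 had a mean of 10831 RPM and ranked number 4 among all genes of the table, FBgn0019936 a mean of 8460.5 RPM and rank 8, and FBgn0010409 a mean of 4624 RPM and rank 14. Together they held 29.5% to 59.6% of the reads of the 42 genes, with a median over hours of 49.7%. The next genes were far lower, FBgn0003942 at a mean of 2193 RPM and FBgn0017579 at 1774 RPM.

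The share of the remaining 39 genes ran from 2.21% to 2.38% in the first 3 hours, had its highest value of 3.83% at 9-10 h, and lay between 1.42% and 2.39% from 17 h on. At 9-10 h the whole sum was 5.44% although the 39 genes stood at their maximum, and FBgn0003941 had its lowest level of the series in that hour. The median gene of the 42 had its lowest level, 249 RPM, at 19-20 h and its highest, 645 RPM, at 9-10 h.

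The genes differed strongly in level among themselves. Mean levels spanned 157-fold, from 69.2 RPM for FBgn0003279 to 10831 RPM for FBgn0003941, with a median of 414 RPM. Of the 42 genes 12 had a mean of at least 1000 RPM, 10 had a mean under 200 RPM, and all 42 lay above the median gene of the whole table at 17.8 RPM. RAMPAGE counts the 5' end of a cDNA once whatever its length, so these levels need no correction for gene length, although the efficiency of capture may differ between genes.

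The 5 lowest genes were FBgn0003279, FBgn0014026 with a mean of 106 RPM, FBgn0013325 with 110 RPM, FBgn0011272 with 116 RPM and FBgn0015756 with 126 RPM. They were lowly expressed only in relation to the other members. No member was without reads in any hour, and the smallest value was 1 read, for FBgn0003279 at 7-8 h, where 7.00 RPM had a 95% Wilson interval of 1.24 to 39.6 RPM.

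The spread between genes changed little over development. The SD over the 42 genes of log2(RPM + 1) was 1.65 at its lowest, at 19-20 h, 1.77 as the median over hours, and 2.08 at its highest, in the shallow 7-8 h sample. The order of the genes was also largely kept. Spearman's rho between the levels in 1 hour and the mean levels over all hours, across the 42 genes, ran from 0.859 to 0.986 with a median of 0.939. Between the 253 pairs of hours it ran down to 0.690 with a median of 0.876. These correlations describe the same genes measured repeatedly, and genes are not independent replicates.

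Over time the ribosomal protein genes varied less than most genes. A class of steady genes was formed from those that reached 10 RPM and varied less than 5-fold between their lowest and highest hour, and 15 of the 42 genes fell in it, against 7.72% of the 7503 genes of the table that reached 10 RPM. When each hour was replaced by the median of itself and its 2 neighbours, a step chosen after the data had been seen, 34 of the 42 genes were in the class, against 23.5% of all genes. With TMM scaling the count was 18 of 42, against 14.7% of all genes. Without the shallow 7-8 h sample it was 16 of 42, against 9.64% of all genes. The genes compared were not matched for level. A gene with 0 reads in some hour could not enter the class, and no member had such an hour.

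The steadiest genes included several of the moderately expressed ones. FBgn0002579 ran from 406 RPM at 4-5 h through a median of 584 RPM to 1128 RPM at 11-12 h, a 2.78-fold range on the RPM + 1 scale. FBgn0015756 varied 2.93-fold, from 73.2 to 217 RPM, FBgn0261606 2.99-fold, from 969 to 2897 RPM, FBgn0002593 2.99-fold, from 189 to 568 RPM, and FBgn0037351 3.12-fold, from 518 to 1616 RPM. Of these 5 genes FBgn0002579, FBgn0015756 and FBgn0002593 were also among the 5 whose profile lay nearest to the median profile of the group, with FBgn0015521 and FBgn0039757.

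The broad shape that most genes shared was a maximum in mid-embryogenesis. Of the 42 genes 37 had their highest level in the 6 hours from 8 to 14 h, where 18.9% of all genes tested had theirs, and 16 had it at 9-10 h alone, against 3.61% of all genes tested. None had its highest level from 17 h on. Under TMM scaling fewer genes had this shape. Then 17 genes were highest from 8 to 14 h, for which the share of all genes tested is not given here. Of these, 6 were highest at 9-10 h, against 2.56% of all genes tested. From 17 to 23 h 21 genes were highest, where 32.3% of all genes tested were.

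**Figure D2:**
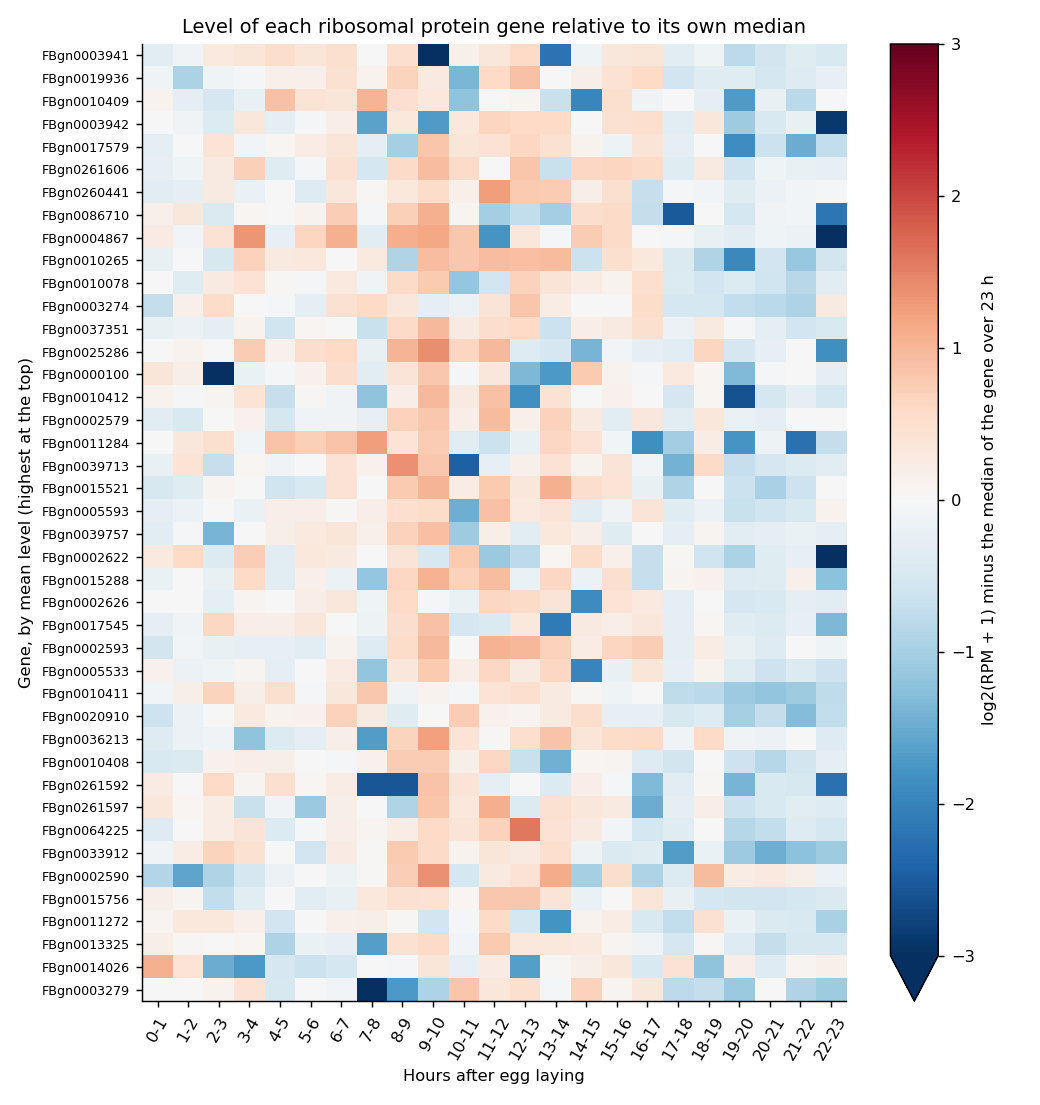
Level of each of the 42 ribosomal protein genes (rows, highest mean level at the top) in each 1 h window (columns), as log2(RPM + 1) minus the median of the gene over 23 h, with colours limited to -3 and 3. Most rows are red between 8 and 14 h and pale blue after 17 h, and isolated dark blue cells mark single hours in which a gene lay far below its neighbours.

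Whether each gene changed over development was tested with a smooth curve over the 23 hours, fitted to all 8367 genes that passed a filter on low counts with limma and adjusted over all of them. At an adjusted p under 0.05, 18 of the 42 genes were called, against 89.4% of all genes tested. All 42 genes passed the filter. The fitted curve of the median member spanned 1.09 on the log2 scale between its lowest and highest hour, against 2.78 for the median of all genes tested, and none of the 42 exceeded that second value. The scatter around the curve was similar, with a median residual SD of 0.54 in the members and 0.62 in all genes tested.

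Of the 18 called genes 14 had their fitted maximum in the hours starting from 8 to 12 h, against 19.1% of all called genes. Over the 42 members this number was 24, and none had its fitted maximum from 18 h on. Under TMM scaling 4 members had it from 8 to 12 h and 27 in the hours starting from 18 to 22 h. The shares of all genes tested for these counts of the 42 are not given here. TMM scaling raised the log2 level of every gene by 0.34 to 0.85 in the hours from 17 h on. The smallest adjusted p belonged to FBgn0010411, 4.3e-05, whose level lay between 256 and 490 RPM in the 17 hours up to 16-17 h and between 123 and 165 RPM in the 6 hours after it. The early and the late hours of this gene, divided there after its values had been seen, did not overlap, and its fitted level changed by -1.34 on the log2 scale (SE 0.35). After TMM scaling the same hours overlapped, at 204 to 389 RPM and 206 to 243 RPM, and the change was -0.23 (SE 0.31, adjusted p = 0.52). FBgn0033912, with 259 RPM at 8-9 h and 45.9 RPM at 17-18 h, followed with an adjusted p of 6.0e-05 and a fitted change of -1.50 (SE 0.42), which was -0.39 (SE 0.46, adjusted p = 0.32) after TMM scaling. FBgn0020910, with an adjusted p of 0.00045, ran from 98.1 RPM at 21-22 h through a median of 244 RPM to 412 RPM at 10-11 h. FBgn0064225, with an adjusted p of 0.00059, ran from 80.1 RPM at 19-20 h to 433 RPM at 12-13 h, and FBgn0015521, with an adjusted p of 0.00072, from 198 RPM at 20-21 h to 816 RPM at 13-14 h. All 5 of these were called in each of the 23 fits that left out 1 hour, as were 10 of the 18 in all. Of these 5, FBgn0015521 alone was also called with TMM scaling (adjusted p = 0.018).

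Between the first and the last hour the fitted level was lower at the end in 14 of the 18 called genes and higher in 4. The 14 were 33.3% of the 42 members, against 59.5% of all genes tested that were called and lower, and 77.8% of the called members, against 66.5% of all called genes. The 4 were 9.52% of the members, against 29.9% of all genes tested that were called and higher. For 7 of the 14 and 1 of the 4 the difference exceeded 2 standard errors. The gene that ended higher by that margin was FBgn0002590, which held 42.4 to 91.3 RPM in the first 4 hours, had a median of 129 RPM and reached 333 RPM at 9-10 h. Its fitted change was 1.61 (SE 0.59, adjusted p = 0.026), and the call was lost in 2 of the 23 fits that left out 1 hour, without 1-2 h and without 2-3 h, with an adjusted p of up to 0.15.

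The other large fitted rises were smaller than or close to their error. FBgn0000100 had a fitted change of 0.72 (SE 1.04, adjusted p = 0.90), FBgn0039757 of 0.37 (SE 0.47, adjusted p = 0.29), FBgn0002579 of 0.29 (SE 0.36) and FBgn0260441 of 0.08 (SE 0.37). The last 2 were called, with adjusted p of 0.024 and 0.0055, with curves that peaked in the hour starting at 11 h and ends that differed by less than 1 standard error.

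Several of the large fitted falls rested on the last sample. FBgn0002622 had 48.2 RPM at 22-23 h after 344 RPM at 21-22 h, and its fitted change was -2.11 (SE 0.61, adjusted p = 0.0079). FBgn0003942 had 297 RPM after 1903 RPM in the same hours, with a fitted change of -2.05 (SE 0.67, adjusted p = 0.014). FBgn0004867 had 130 RPM after 1128 RPM, with a fitted change of -1.99 (SE 0.75, adjusted p = 0.0094). In each of these 3 genes the value at 22-23 h was the lowest of the series. Without 22-23 h their adjusted p was 0.34, 0.39 and 0.44. After TMM scaling their fitted changes were -0.99, -0.93 and -0.87, with adjusted p of 0.28, 0.11 and 0.23. The other fitted falls among the 5 largest, of FBgn0261592 at -2.16 (SE 0.84, adjusted p = 0.20) and of FBgn0003279 at -1.75 (SE 0.78, adjusted p = 0.15), did not pass the test, and after TMM scaling they were -1.05 and -0.64. Of the remaining called genes, FBgn0013325 lost the call without 11-12 h (adjusted p = 0.074) and FBgn0017579 without 21-22 h (adjusted p = 0.058). FBgn0002579 lost it without 1-2 h, 9-10 h or 11-12 h (adjusted p up to 0.093), and FBgn0036213 without 3-4 h or 13-14 h (adjusted p up to 0.075).

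Relative to all genes tested, most ribosomal protein genes had the higher fitted change towards the end of the series. The median fitted change from the first to the last hour was -0.55 over the 42 genes and -1.22 over all genes tested, and 33 of the 42 changed by more than that second median. After TMM scaling the medians were 0.56 and -0.25, and 36 of the 42 lay above the median of all genes. The difference between members and all genes was thus 0.67 under the first scaling and 0.81 under the second, whereas the sign of the change itself turned. With TMM scaling 9 of the 42 genes were called, against 79.1% of all genes tested, and all 9 had a higher fitted level at the end. They were 21.4% of the 42 members, against 38.5% of all genes tested that were called and higher, and among all called genes 48.6% were higher. DESeq2 was run on the recovered counts with its own scaling between samples. Under it the median fitted change was 0.36 over all genes tested and 1.19 over the members. It called 27 of the 42, against 83.2% of all genes tested, and all 27 were higher at the end. They were 64.3% of the members, against 49.3% of all genes tested that were called and higher, and among all genes DESeq2 called 59.2% were higher. The edgeR test with TMM called 8, against 81.5% of all genes tested.

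The calls shared by both scalings were 7 genes, and the number of all genes called under both is not given here. They were FBgn0002593, FBgn0260441, FBgn0015756, FBgn0002579, FBgn0002590, FBgn0015521 and FBgn0036213. FBgn0002590 was the only one with an end above the start by more than 2 standard errors under both scalings, at 1.61 and, after TMM scaling, at 2.72 (SE 0.65, adjusted p = 0.0044). FBgn0014026 and FBgn0039757 were called with TMM only. FBgn0014026 was the 1 gene of the 42 with its highest level at 0-1 h, 237 RPM, and it held 33.5 RPM at 3-4 h and 126 RPM at 22-23 h.

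**Figure D3:**
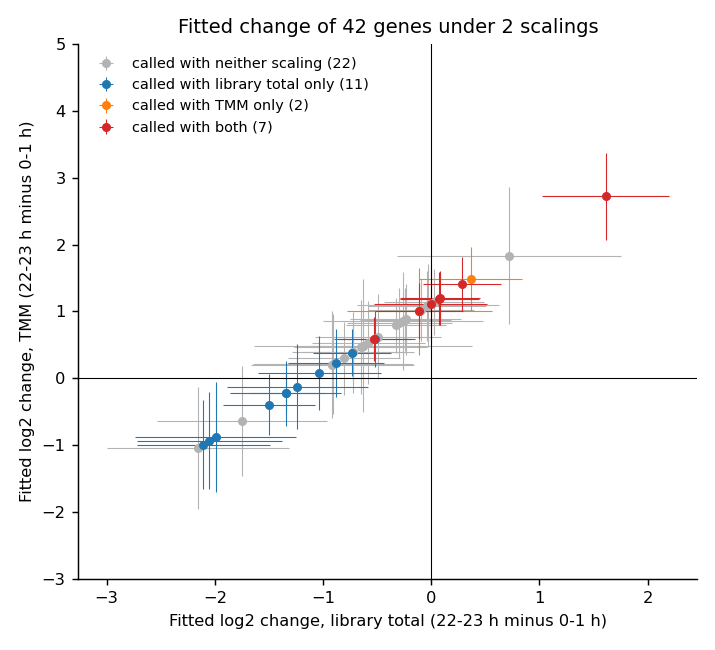
Fitted log2 change from 0-1 h to 22-23 h of the 42 ribosomal protein genes with levels scaled by library total (x axis) and by TMM (y axis), with standard errors as bars and colours for the scaling under which the gene was called. Points lie left of 0 for 35 genes on the x axis and above 0 for 33 genes on the y axis, with FBgn0002590 at the upper right at 1.61 and 2.72.

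Outliers were ranked by the SD over hours of the difference between a gene and the median member on the log2 scale, which had a median of 0.55 over the 42 genes. The 5 farthest from the median profile were FBgn0003941 (1.19), FBgn0000100 (1.07), FBgn0261592 (0.97), FBgn0003279 (0.96) and FBgn0004867 (0.87). The 5 nearest lay between 0.35 and 0.40. Pearson's r over the 23 hours between a gene and the median of the other members had a median of 0.48, a highest value of 0.80 for FBgn0033912 and a lowest of -0.25 for FBgn0003941. Over all genes tested the median r was 0.32, taken with the median profile of all members. All these values share the libraries and their depths.

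Some of the outliers had single hours in which the gene lay far below its level in the hours around. FBgn0261592 and FBgn0003279 were instead low in consecutive hours, FBgn0261592 at 34.98 and 34.88 RPM at 7-8 h and 8-9 h, and FBgn0003279 at 7.00, 22.1 and 39.4 RPM from 7 to 10 h. Their values at 7-8 h rested on only 5 reads for FBgn0261592, against 205 reads at 8-9 h, and on 1 read for FBgn0003279. FBgn0003941, the highest of all members, held between 6366 and 16504 RPM in 21 of the 23 hours. At 9-10 h it stood at 566 RPM (6436 reads, 95% Wilson interval 552 to 580 RPM), between 15549 RPM at 8-9 h and 12079 RPM at 10-11 h. At 13-14 h it stood at 2346 RPM, between 16504 and 9919.5 RPM. Both hours lie far outside the range of the other 21 and outside counting error, and these samples held 11373009 and 6790228 reads.

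FBgn0000100 behaved likewise at 2-3 h, with 36.2 RPM from 143 reads between 836 and 644 RPM, against a median of 738 RPM over the series. FBgn0019936 had its lowest value, 3152 RPM, at 10-11 h, against a median of 8097 RPM and a highest value of 14789 RPM at 12-13 h. FBgn0010409 had 1203 RPM at 14-15 h, a median of 4643 RPM and a highest value of 9473.5 RPM at 7-8 h. The lowest hours of the 3 highest genes thus differed. Other low hours coincided, since FBgn0010409 stood at 2017 RPM at 10-11 h, the lowest hour of FBgn0019936, between 5755 and 4686 RPM. It stood at 2928 RPM at 13-14 h, where FBgn0003941 was also low.

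**Figure D4:**
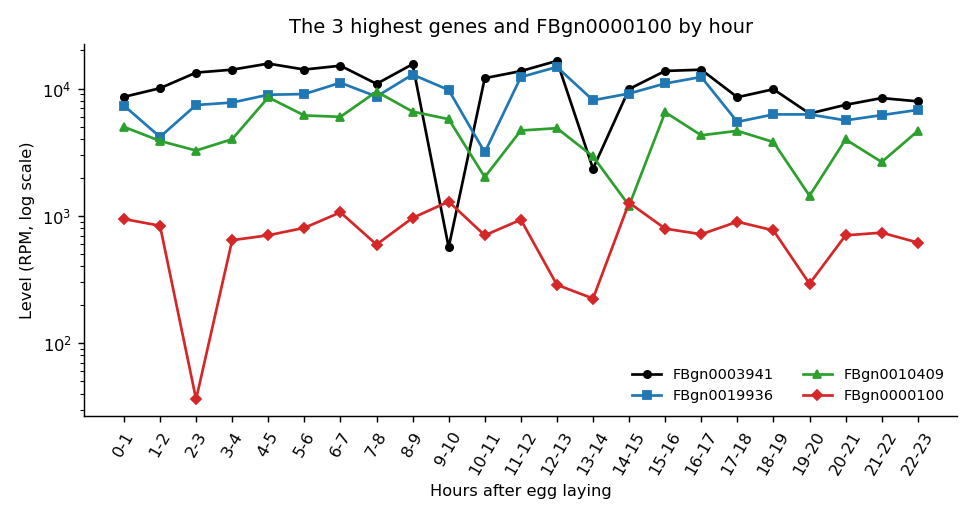
Level in RPM (log scale, y axis) of the 3 highest ribosomal protein genes and of FBgn0000100 in each 1 h window (x axis). FBgn0003941 falls to 566 RPM at 9-10 h and 2346 RPM at 13-14 h, FBgn0000100 to 36.2 RPM at 2-3 h, and FBgn0003941 is back at 12079 and 9919.5 RPM in the hours after its low values.

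To count such events, an hour was taken as a dip where both neighbouring hours held at least 50 RPM and the hour itself was at least 4-fold below the lower of them, provided that at least 20 reads would have been seen at that neighbour's level. This rule was chosen after the data had been seen. It found 11 dips among 842 eligible gene-hours of the 42 genes, or 1.31%, against 0.775% of all eligible gene-hours of the table. The 11 dips lay in 9 genes and 8 different hours, rested on 103 to 15928 reads each, and were 4.04-fold to 21.3-fold deep. No member showed the opposite, an hour at least 4-fold above both neighbours, and 5 of 37929 gene-hours of all genes did, against 294 dips. Dips and rises were both counted over gene-hours whose neighbours held at least 50 RPM, so rises from lower levels were not included. At 3-fold the members had 18 dips, 2.14% of their eligible gene-hours, against 1.38% of those of all genes.

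The further dips lay in 7 genes. FBgn0010412 dipped at 12-13 h, to 197 RPM between 1311 and 953 RPM, and again at 19-20 h, to 115 RPM between 743 and 491 RPM. FBgn0004867 dipped at 11-12 h, to 378 RPM between 2260 and 1633 RPM, and FBgn0003942 at 9-10 h, to 683 RPM between 2758 and 2787 RPM. Each of the other 4 affected genes, FBgn0017545, FBgn0002626, FBgn0039713 and FBgn0005593, dipped once. The hour was 13-14 h for FBgn0017545, 14-15 h for FBgn0002626 and 10-11 h for the remaining pair.

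The dips were not shared by the group. At 9-10 h, where FBgn0003941 and FBgn0003942 dipped, 16 other members were at their highest level of the series. Whether a second sample of the hour would show the dips was not tested.

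The positions of the promoters were read from the TSC tables. A member was linked to a *D. erecta* gene where the reads of that gene's TSCs summed to the member's reads in all 23 hours. This gave an identical sum for 38 genes and a sum within 32 reads for 3 more, while FBgn0010411 was not linked. The coordinates are those of the deposited files, on the *D. erecta* scaffolds of FlyBase release 1.3, counted from 1. No gene annotation of that release was used here, so exons, introns and UTRs are not given.

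Most linked members used a single dominant promoter, and the share of all genes that did so is not given here. Of the 41 linked genes 12 had 1 TSC and 29 had 2 or more, but in 33 the main TSC held at least 95% of the reads. FBgn0003941 started on the plus strand of scaffold 4929 at 4301094 to 4301590, and this TSC of 497 bp, the widest main TSC of the group, held 99.99% of its reads. FBgn0019936 started on the minus strand of scaffold 4770 at 5015259 to 5015369, its only TSC. FBgn0010409 started on the minus strand of scaffold 4845 at 7662076 to 7662444, with 99.74% of its reads.

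Main TSCs of the members were 79 to 497 bp wide with a median of 155 bp. The median over all 8625 genes with a TSC was 90.0 bp, and 116 bp over the 3438 main TSCs that held at least 3192 reads, the smallest number in a member. The difference in width was not tested.

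In 10 of the 11 dips the main TSC was itself at least 4-fold below both neighbours. The main TSC held 96.8% to 100% of the reads of the genes that dipped, so this largely restates the dips of the genes. For the 3 dips of genes with 2 TSCs that held enough reads, FBgn0010412 at 12-13 h was at least 4-fold down at both TSCs. For FBgn0003942 the minor TSC held 74.4 RPM at 8-9 h and 9.03 RPM at 9-10 h, and the main TSC 2704 and 679 RPM, with 2719 RPM in the next hour, so that the minor TSC alone met the 4-fold rule. For FBgn0010412 at 19-20 h the minor TSC was at 3.57 RPM between 12.1 and 12.0 RPM, under 4-fold down.

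In 4 genes the main TSC held under 80% of the reads. FBgn0003279 divided its reads between 3 TSCs on scaffold 4820, with 45.3%, 39.7% and 15.0%, and FBgn0020910 between 3 TSCs on scaffold 4770, with 47.8%, 42.9% and 9.30%. FBgn0002622 had 75.3% of its reads at 8867394 to 8867510 and 24.7% at 8866734 to 8867123 on the minus strand of scaffold 4820. FBgn0064225 had 75.99% at 1834552 to 1834836 and 23.8% at 1835255 to 1835466 on the plus strand of scaffold 4845.

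These divisions moved between hours without a steady course. The main TSC of FBgn0020910, at 14572793 to 14572871 on the minus strand, held a median of 46.2% of the reads, with 23.5% at 10-11 h (95% Wilson interval 21.4% to 25.8%) and 68.7% at 21-22 h (63.6% to 73.4%). That of FBgn0002622 held 83.8% at 0-1 h and 54.4% at 17-18 h (50.6% to 58.1%), but again 79.2% at 21-22 h. Its lowest share, 51.7% (39.2% to 64.1%), came from 58 reads in the shallow 7-8 h sample. The hours of lowest and highest share were apart by more than their counting intervals in both genes. Some low shares fell in the same sample. At 10-11 h the main TSC shares of FBgn0020910, FBgn0064225 (54.2%) and FBgn0261592 (76.1%) were the lowest of their series. FBgn0002622 (61.5%) and FBgn0011272 (85.8%) were then below their medians of 71.8% and 90.2%. FBgn0015288 (91.6%) and FBgn0002579 (94.2%) were above theirs of 87.3% and 93.1%, and FBgn0003279 was at its median. A shift common to the sample was not tested.

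FBgn0015288 showed a minor TSC that was scarcely used at first. Its main TSC, on the minus strand of scaffold 4644 at 624020 to 624344, held 302 to 532 RPM in the first 4 hours, while the minor TSC, at 622887 to 622897 and 1122 bp downstream on the same strand, held 2.23 to 11.9 RPM, or 0.712% to 2.95% of the gene. In the 19 hours from 4 h on the minor TSC held 23.2 to 100.6 RPM with a median of 50.9 RPM, and 6.18% to 52.2% of the gene with a median of 14.0%. The 2 sets of hours did not overlap in either measure. The highest share came from the 23 reads of the gene at 7-8 h (95% Wilson interval of the main TSC 29.24% to 67.04%), and the next highest was 31.8% at 12-13 h. The main TSC itself had medians of 331 RPM before 4 h and 324 RPM after. The boundary at 4 h was chosen after the values had been seen, and no test was made.

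**Figure D5:**
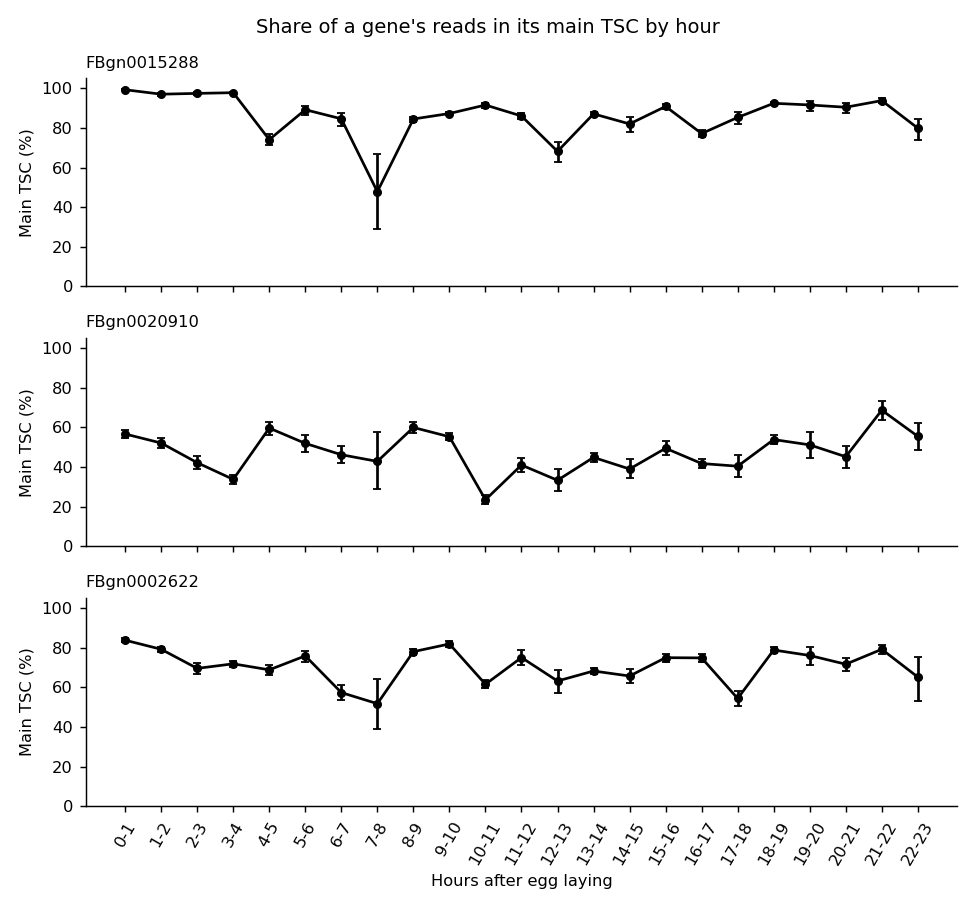
Share of a gene's reads in its main TSC (%, y axis) in each 1 h window (x axis) for FBgn0015288, FBgn0020910 and FBgn0002622, with 95% Wilson intervals as bars. FBgn0015288 stays above 97% in the first 4 hours and below 94% in all later ones, whereas the other genes move up and down between 23.5% and 83.8% over the series.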

How the data were processed

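RAMPAGE libraries of 23 *D. erecta* embryo samples were used. The labels describe samples barcoded at reverse transcription and pooled into 1 library on 1 lane, so no batches are given. The authors mapped reads with STAR to FlyBase release 1.3 and called TSCs on the pooled series with their own peak caller. The deposited gene and TSC tables are in RPM, computed by the authors. All values above 0 were whole multiples of the worth of 1 read (tolerance 0.001 read), from which counts were recovered (100% of the values in each table). The deposited TSC file gives positions, and its score column was not used. An aligned version of the gene table was not used.

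The list of members used no measured value, but it and all other lists were drawn up with earlier results of these data known. Named genes were the 5 at each end by mean level, by fold, by distance from the median profile and by fitted change. Of genes with near copies, reads of the copies may be divided by the authors' mapping. Names of the identifiers were not used here, so the planned division by subunit, stalk and duplicated genes, the other ribosomal protein, translation factor, biogenesis and mitochondrial lists, and sequence motifs were not analysed here.

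Levels were log2(RPM + 1). limma 3.58.1 (trend) fitted a natural spline of 4 degrees of freedom over the start hour, after filterByExpr with a minimum count of 10, with Benjamini-Hochberg adjustment and a threshold of 0.05. Count tests on the recovered reads were alternatives (edgeR 4.0.16 quasi-likelihood, DESeq2 1.42.0 likelihood ratio with its own scaling between samples). With 1 sample per hour, p-values measure scatter around the curve. The script was tested on simulated data. R 4.3.3 and Python 3.11.15 were used.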

Additional observations from a re-analysis of the deposited data

How the results depend on the processing

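No paired analysis was possible because each time point has 1 sample. The log2 ratio of the summed share, last to first hour, of -0.34 turned to 0.21 over reads in listed genes and 0.61 with TMM. It moved to -0.28 without the reads of the 10 highest other genes, -0.41 without the highest member and -0.63 as a mean of log2 levels. The ratio of 12-13 h to 0-1 h, 0.64, moved in the same order to 0.74, 0.79, 0.70, 0.55 and 0.27, and to 0.48 with a running median of 3 hours, chosen after seeing the data.

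The number of calls, 18, was 9 with TMM and 8 with edgeR and TMM, each sharing 7 genes with the 18. DESeq2 shared 11. How many of all genes were shared in this way is not given here. At an adjusted p under 0.001 the number was 5 members, against 5734 of the 8367 genes tested. Leaving out single hours gave 16 to 21 members, against 7220 to 7732 of all genes tested. The 4 higher at the end became 9 (0 lower) with TMM, 8 (0 lower) with edgeR and TMM, 27 (0 lower) with DESeq2 and 0 (5 lower) at an adjusted p under 0.001, and 2 to 7 over the fits that left out 1 hour (7 without 10-11 h, 2 without 21-22 h). Among all genes tested, edgeR with TMM called 81.5% and DESeq2 83.2%.

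The median spread of 1.77 was 2.36 as an interquartile range. Ranking by 1 minus Pearson's r kept 3 of the 5 farthest members. The steady class grew from 15 to 34 with the running median, and the dips from 11 to 18 at 3-fold (1.38% of all gene-hours), both chosen after seeing the data. Of 22 named genes, the range over hours moved by more than the residual SD in 2 without 7-8 h and in 3 with TMM. FBgn0003279, at 4.09 on the log2 scale, had 2.55 without 7-8 h. Leaving out the copied pair of small-subunit genes was not run, since their identifiers were not resolved here. Single samples per hour, and 142925 reads at 7-8 h, limit all values.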
